A study of Homo sapiens with 6 samples.

Results

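Guanylate-binding proteins (GBPs) 1 to 5 were followed in SKOV3 ovarian cancer cells given 2'3'-cGAMP, the cyclic dinucleotide that cGAS makes and STING1 binds. The 5 genes were taken by symbol from a table of 60498 genes. All 5 averaged 10 counts or more per library, as did 15126 genes in all, the set used for the treatment test. Comparisons of folds and levels between libraries used 15047 to 15114 of these, leaving out genes at or under 3 counts in both libraries of a ratio. Poly(A) RNA was sequenced from 3 lines, each with a control library and a library from cells exposed to 10 µg/mL cGAMP for 30 min and harvested after a further 4 h. WT/HAQ is the parental line, with a STING1 haplotype that the study names WT and a HAQ haplotype. WT/- and HAQ/- are clones that keep the named copy, obtained from the parental cells with lentiviral Cas9 and a pair of guides flanking the STING1 coding sequence, puromycin selection and limiting dilution. The study uses digitonin permeabilization to bring cGAMP into cells, and how the control cells were handled is not given in the sources used here. The question put to these libraries is how the cGAMP response differs between STING1 haplotypes. Each line and treatment has 1 library, and each genotype 1 line, so haplotype and clone cannot be told apart between WT/- and HAQ/-, which both keep 1 named copy, and copy number and clone cannot be told apart between WT/- and the parental line.

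Library totals were 17608467 counts in the WT/HAQ control, 16719799 in WT/HAQ with cGAMP, 17060710 in the WT/- control, 12444822 in WT/- with cGAMP, 17022809 in the HAQ/- control and 13686498 in HAQ/- with cGAMP. The edited gene itself, STING1, had 669.1 normalized counts in the WT/HAQ control, 353 in the WT/- control and 213 in the HAQ/- control. With cGAMP it had 1780.3, 553 and 403 normalized counts in the same order of lines, so both clones lay below the parental line in either state. Normalized counts here are counts scaled by the trimmed mean of M values (TMM) to a common library size.

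The libraries carried the epithelial markers of SKOV3. All 8 listed markers were detected, their normalized counts summed to between 67882 (WT/- with cGAMP) and 101460 (WT/HAQ control), and ERBB2, which this line is known to overexpress, was the most abundant and made up most of each sum. KRT19 differed between the lines, with 5629.5 normalized counts in the WT/HAQ control but 364 in the WT/- control and 414 in the HAQ/- control, and MUC16 had 33, 7 and 1 control counts, whereas CDH1 had 230, 223 and 210 normalized counts in these controls and KRT18 had 5715, 5067 and 4335. Of 8 leukocyte markers, 7 had a read in some library, 4 stayed under 3 counts in every library, and the sum of 417 to 706 came almost wholly from CD68, a lysosomal protein made in many cell types. PTPRC, the pan-leukocyte phosphatase, had at most 3 counts, and the B cell marker MS4A1 had 0 in every library. The 6 endothelial and fibroblast markers were all detected and summed to between 955 and 1422, most of it COL1A1, while the endothelial cadherin CDH5 had at most 10 counts.

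GBPs are large GTPases of the dynamin superfamily that cells make in response to interferons and that assemble on membranes of bacteria, parasite vacuoles and the Golgi. cGAMP bound to STING1 leads to phosphorylation of IRF3 and secretion of type I and type III interferons, which act back on the cell through JAK kinases, STAT transcription factors and IRF9, while IRF1 also drives GBP genes. In human cells GBP1 binds lipopolysaccharide and builds a coat to which GBP2, GBP3 and GBP4 are recruited and on which caspase-4 is activated.

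The 3 members with a promoter in the reference table, GBP1, GBP3 and GBP4, are shown because they rose with cGAMP in all 3 lines. Entries for GBP2, GBP5 and the pseudogene GBP1P1 are missing. The windows run from 250 bases before to 50 bases after the RefSeq start (GRCh38.p14), are read 5′ to 3′ on the minus strand, and lie at chr1:89065159-89065458 (GBP1), chr1:89022817-89023116 (GBP3) and chr1:89198893-89199192 (GBP4). Capitals mark matches to GAAANNGAAA, a core of the interferon-stimulated response element (ISRE), or to TTCNNNGAA, a core of the gamma-activated site (GAS), each sought on both strands.
GBP1: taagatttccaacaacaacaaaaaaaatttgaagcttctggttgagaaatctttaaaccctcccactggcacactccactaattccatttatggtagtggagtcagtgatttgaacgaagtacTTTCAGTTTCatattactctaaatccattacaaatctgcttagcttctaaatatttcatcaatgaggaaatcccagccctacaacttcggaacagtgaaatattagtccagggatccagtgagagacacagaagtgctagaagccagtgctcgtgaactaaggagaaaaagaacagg
GBP3: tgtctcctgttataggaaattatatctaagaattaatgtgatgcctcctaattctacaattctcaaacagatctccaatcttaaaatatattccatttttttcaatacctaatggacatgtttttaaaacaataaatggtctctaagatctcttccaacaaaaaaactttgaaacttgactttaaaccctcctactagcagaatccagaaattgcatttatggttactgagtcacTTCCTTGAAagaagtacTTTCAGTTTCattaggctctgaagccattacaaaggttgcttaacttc
GBP4: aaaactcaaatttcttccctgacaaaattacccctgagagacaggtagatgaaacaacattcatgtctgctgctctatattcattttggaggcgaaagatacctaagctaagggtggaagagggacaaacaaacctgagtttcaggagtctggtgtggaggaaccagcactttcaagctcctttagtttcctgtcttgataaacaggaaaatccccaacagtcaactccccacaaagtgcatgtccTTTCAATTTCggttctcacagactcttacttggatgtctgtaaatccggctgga
GBP1 and GBP3 held the same ISRE-like letters, TTTCAGTTTC, starting 127 bases before the start in GBP1 and at base 3 after it in GBP3. GBP4 held TTTCAATTTC 4 bases before its start. GBP3 also held the GAS-like TTCCTTGAA, 15 bases before its start and a few bases from its ISRE-like match. Of 35116 promoter windows of the same length, 3.57% held the ISRE-like letters and 7.66% the GAS-like letters. The windows of GBP6 and GBP7, relatives in the same cluster, held neither. A match describes letters only, and binding was not measured.

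GBP1, GBP3, GBP4 and GBP5 rose with cGAMP in the libraries of all 3 lines, and GBP2 did not pass the test. In the edgeR quasi-likelihood test with line as a block, 3 cGAMP against 3 control libraries with 2 residual degrees of freedom, 4 of the 5 members were called higher at an adjusted p under 0.05. Over all genes 344 were called higher, 2.27%, and 145 lower, 0.959%, while 11.6% were higher and 13.6% lower by unadjusted p (under 0.05). Line by line, 4 of 5 members were at least 1.5-fold higher in WT/HAQ (12.9% of all genes), 5 of 5 in WT/- (11.9%) and 4 of 5 in HAQ/- (6.77%). The members' median log2 fold change was 3.50 in the parental line, 3.34 in WT/- and 2.07 in HAQ/-, against -0.01, -9.96e-05 and -0.01 over all genes. With 1 library a group, a fold within a line has no replicate check, and its 95% interval covers counting error only.

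**Figure D1:**
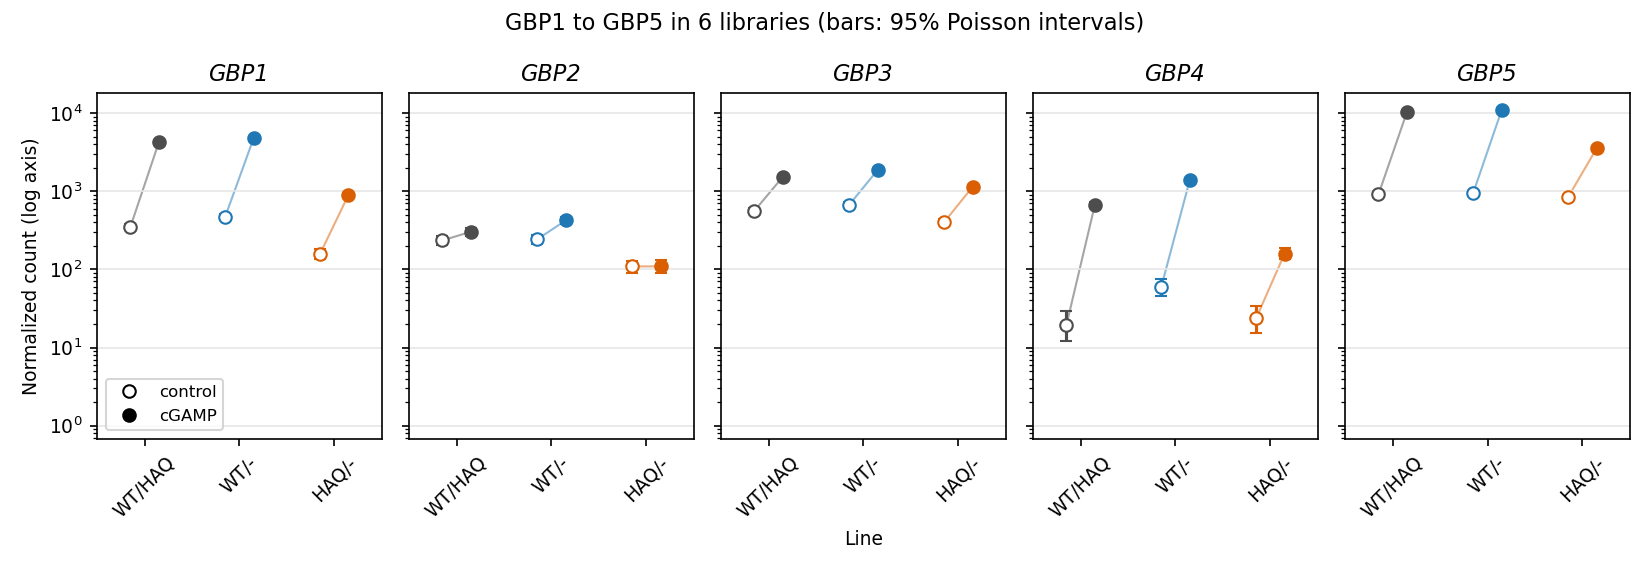
Normalized counts of each gene (log axis) in the control (open) and cGAMP (filled) library of each line, with 95% Poisson intervals. GBP5 reaches 10299 and 11002 with cGAMP in WT/HAQ and WT/- and 3531 in HAQ/-, while the paired points of GBP2 lie close together.

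GBP1 is the farnesylated member that initiates the coat on bacterial surfaces. Its normalized count was 350.0 in the WT/HAQ control and 4232 with cGAMP, 473 and 4791 in WT/-, and 158 and 899.8 in HAQ/-. Every cGAMP library lay above every control library, and both HAQ/- libraries were the lowest of their kind. The fold was 12.1 in the parental line (95% interval 10.9 to 13.4), 10.1 in WT/- (9.22 to 11.1) and 5.70 in HAQ/- (4.85 to 6.73). Over the lines, edgeR gave a log2 fold change of 3.18 (SE 0.224, adjusted p = 0.00708, higher in 3 of 3 lines). The SE here and below was derived as the absolute log2 fold change over the square root of the F value. The F test itself gives no SE.

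GBP5, a geranylgeranylated Golgi-associated member known for limiting furin processing of viral envelopes and for promoting inflammasome assembly, supplied the most reads of the 5 genes in every library, before any correction for length. It had 910.4 normalized counts in the WT/HAQ control and 10299 with cGAMP, 957 and 11002 in WT/-, and 841 and 3531 in HAQ/-. The 3 control values were within 1.14-fold of each other, and the line difference was in the treated libraries, where HAQ/- was at 0.343 of WT/HAQ (0.330 to 0.357). Its fold was 11.3 in the parental line (10.6 to 12.1), 11.5 in WT/- (10.8 to 12.3) and 4.20 in HAQ/- (3.91 to 4.52). The edgeR log2 fold change was 3.04 (SE 0.33, adjusted p = 0.018, higher in 3 of 3 lines).

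GBP4, which lacks a prenylation motif and joins coats begun by GBP1, was nearly silent in untreated cells. Its normalized count was 19.4 in the WT/HAQ control and 672 with cGAMP, 59.7 and 1379.7 in WT/-, and 23.6 and 159 in HAQ/-. WT/- was the highest line in both states, and every cGAMP value lay above every control value. The fold was the largest of the 5 genes in each line: 34.6 in the parental line (22.6 to 55.5), 23.1 in WT/- (17.9 to 30.2) and 6.74 in HAQ/- (4.45 to 10.6), with intervals that overlap those of GBP1 and GBP5 in HAQ/-. These ratios rest on 22, 64 and 27 control counts. Over the lines edgeR gave 4.28 (log2, SE 0.396, adjusted p = 0.0127, higher in 3 of 3 lines).

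GBP3, the closest relative of GBP1 by sequence and another member without a prenylation motif, rose less and by nearly the same factor everywhere. Its normalized count was 563 in the WT/HAQ control and 1533 with cGAMP, 673 and 1875 in WT/-, and 401 and 1137 in HAQ/-. HAQ/- was the lowest line in both states, and its treated library still lay above all controls. The fold was 2.72 in the parental line (2.48 to 2.99), 2.79 in WT/- (2.55 to 3.05) and 2.83 in HAQ/- (2.54 to 3.17). Its derived SE was the smallest of the 5 members, 0.0665 for an edgeR log2 fold change of 1.48 (edgeR adjusted p = 0.00306, higher in 3 of 3 lines).

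GBP2, a geranylgeranylated member known to act with GBP5 on furin, differed from the rest. It had 235 normalized counts in the WT/HAQ control and 303 with cGAMP, 243 and 423 in WT/-, and 109 in both HAQ/- libraries. The control and treated values overlapped across lines, since the treated HAQ/- value lay below the WT/HAQ and WT/- controls. The fold was 1.29 in the parental line (1.09 to 1.52), 1.74 in WT/- (1.48 to 2.06) and 1.004 in HAQ/- (0.764 to 1.32), where its sign turned negative with scaling by total counts (log2 -0.01), with a filter at a mean count of 1 (log2 -0.00141) or with libraries thinned to the smallest total (log2 -0.09). edgeR gave a log2 fold change of 0.42 (SE 0.167, adjusted p = 0.199).

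**Figure D2:**
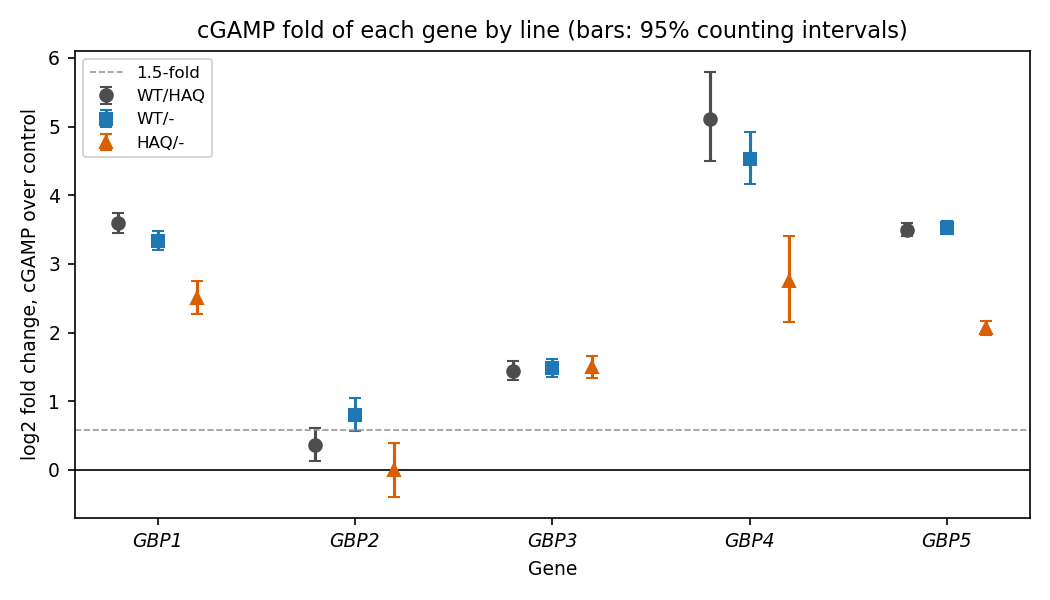
log2 fold change of cGAMP over control for each gene in each line, with 95% counting intervals, a solid line at 0 and a dashed line at 1.5-fold. GBP3 has nearly the same height in all 3 lines (1.445, 1.479 and 1.503), whereas GBP1, GBP4 and GBP5 are lower in HAQ/-.

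The calls depended on which lines were fitted. Leaving the WT/- line out, edgeR called 0 of the 5 members and 0 genes of the whole table, although 4 members were higher at an unadjusted p under 0.05 and their log2 fold changes were close to those with all lines: 3.09 for GBP1, 1.48 for GBP3, 4.01 for GBP4 and 2.80 for GBP5. With the HAQ/- line left out all 5 were called, GBP2 with a log2 fold change of 0.58 and adjusted p = 0.0355 in edgeR, the lowest of a range of 0.0355 to 0.838 over 8 alternatives. With WT/HAQ left out 3 were called, since GBP5 had adjusted p = 0.0597 in edgeR. Its range over the 8 alternatives ran from 1.09e-23 in DESeq2 to 0.269 in edgeR without WT/-. When line was dropped from the model, edgeR called 0 members, with 4 at an unadjusted p under 0.05 and log2 fold changes of 3.34, 1.47, 4.43 and 3.20 for the same genes. DESeq2 with line in the model called 4.

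How far the response differed between the lines was read from the log2 fold change of a line minus that of another. WT/HAQ differs from HAQ/- in the WT copy, in copy number and in clone at once, which cannot be told apart. No test is possible between single libraries, and the WT/HAQ and WT/- differences from HAQ/- share the HAQ/- libraries. WT/- exceeded HAQ/- for 4 of 5 members (52.1% of all genes), with a median difference of 0.83 against 0.02 over all genes. WT/HAQ exceeded HAQ/- for 4 of 5 members (49% of all genes), with a median of 1.09 against -0.01. GBP4 showed the widest gap, 2.36 between WT/HAQ and HAQ/- (1.51 to 3.21) and 1.78 between WT/- and HAQ/- (1.08 to 2.47). GBP5 followed at 1.43 (1.29 to 1.57) and 1.45 (1.31 to 1.59), then GBP1 at 1.09 (0.810 to 1.36) and 0.83 (0.561 to 1.10). GBP2 differed by 0.36 (-0.08 to 0.81) and 0.80 (0.351 to 1.24), so only its gap to WT/- lay outside the counting interval. GBP3 was the exception, at -0.06 between WT/HAQ and HAQ/- (-0.26 to 0.149) and -0.02 between WT/- and HAQ/- (-0.23 to 0.180), a sign that turned positive (0.14) in thinned libraries.

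For GBP1, GBP4 and GBP5 the folds of WT/HAQ and WT/-, the lines that carry a WT copy, lay closer to each other than to those of HAQ/-, which did not hold for GBP2 and GBP3. WT/HAQ exceeded WT/- for 2 of 5 members (45.6% of all genes), with a median of -0.02 that turned to 0.01 with DESeq2 size factors. GBP1 was 0.26 higher in WT/HAQ (0.0558 to 0.456) and GBP4 0.58 higher (-0.13 to 1.29). GBP5, the median member, differed by -0.02 (-0.15 to 0.109), GBP3 by -0.03 (-0.22 to 0.152), and GBP2 by -0.44 (-0.77 to -0.10). The GBP1 and GBP2 intervals leave out 0, in opposite directions. In bulk RNA a smaller fold may come from fewer responding cells or from less RNA per cell, which cannot be told apart.

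**Figure D3:**
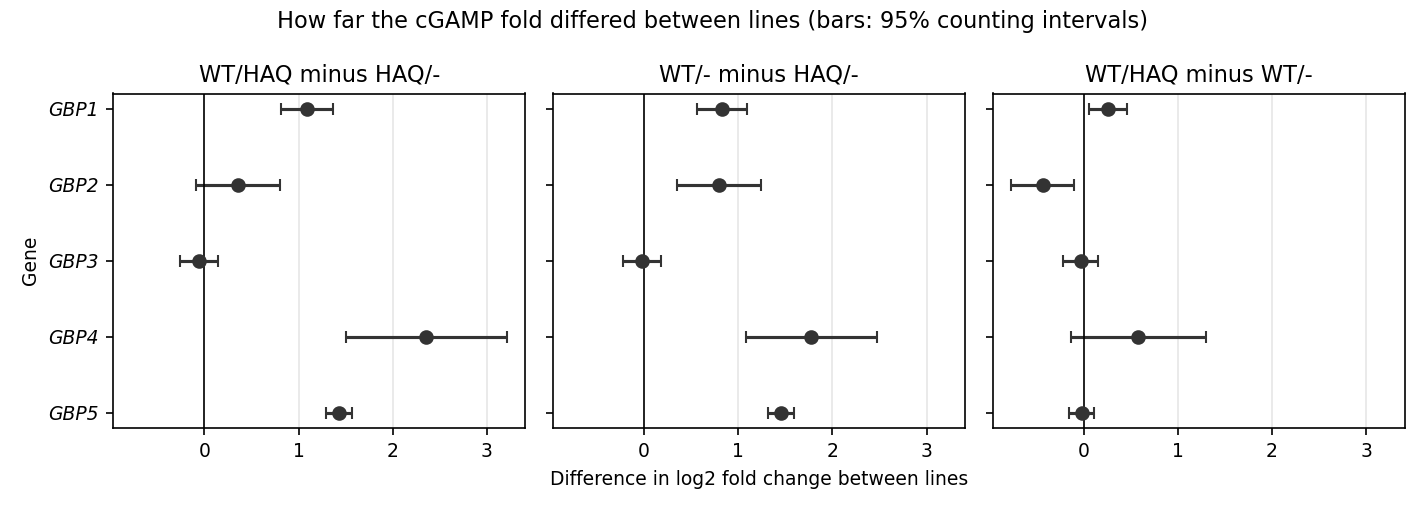
Difference in log2 fold change between pairs of lines for each gene, with 95% counting intervals and a vertical line at 0. In both panels against HAQ/-, GBP4, GBP5 and GBP1 lie to the right of 0 and GBP3 on it, while in the panel of WT/HAQ minus WT/- the points scatter around 0.

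The lines also differed before cGAMP. In WT/- 1 member, GBP4, was at least 1.5-fold above the WT/HAQ control (13% of all genes), at 3.07-fold (1.87 to 5.24). In HAQ/- 2 members were at least 1.5-fold below it (8.62% of all genes): GBP1 at 0.451 of the WT/HAQ level (0.376 to 0.539) and GBP2 at 0.464 (0.372 to 0.576). GBP3 was at 0.713 (0.631 to 0.805), and GBP5 at 0.924 (0.845 to 1.0095) was within counting error. Untreated GBP4 in HAQ/- could not be distinguished from WT/HAQ at this depth (ratio 1.21, 0.664 to 2.23).

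After cGAMP every member was lower in HAQ/- than in WT/HAQ. GBP1 was at 0.213 of the WT/HAQ level (0.197 to 0.229), GBP4 at 0.236 (0.196 to 0.283), and GBP2 at 0.361 (0.285 to 0.453). GBP3 stayed nearest, at 0.742 (0.686 to 0.802), about the ratio it had in the controls. Treated WT/- exceeded treated HAQ/- by 8.69-fold for GBP4 (7.30 to 10.4) and by 1.65-fold for GBP3 (1.52 to 1.79), the widest and narrowest of the 5.

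Levels of different genes were compared as normalized counts per kilobase of merged exons on the RPKM scale. In the untreated cells GBP3 led in all 3 lines, at 8.42 in the parental line, 10.1 in WT/- and 6.003 in HAQ/-. GBP5 came next (5.32, 5.60 and 4.92), then GBP1 (3.68, 4.97 and 1.66), GBP2 (2.09, 2.15 and 0.968) and GBP4 (0.203, 0.623 and 0.246). GBP5 and GBP1 in the WT/- control were the only neighbors in these orders whose counting intervals overlapped.

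With cGAMP the order changed. GBP5 led on the same scale, at 60.2 in the parental line, 64.3 in WT/- and 20.6 in HAQ/-. GBP1 was second in WT/HAQ and WT/- (44.4 and 50.3), but in HAQ/- it stood behind GBP3, with 9.45 against 17.0. On this scale GBP4 passed GBP2, at 7.01 against 2.69 in the parental line, 14.4 against 3.76 in WT/- and 1.66 against 0.971 in HAQ/-. As a share of the summed level per kilobase, GBP3 made up 42.7% of the 5 genes in the WT/HAQ control and 16.7% with cGAMP, 43.0% and 17.4% in WT/-, and 43.5% and 34.2% in HAQ/-. GBP1 went the other way, from 18.6% to 32.4% in WT/HAQ, from 21.2% up to 31.3% in WT/- and, in HAQ/-, from 12.02% to 19.0%. Parts of these orders depend on the length used. On that of the canonical transcript, GBP1 stood above GBP5 in both WT/- libraries (27.6% against 23.6% in the control, 39.4% against 38.2% with cGAMP), and GBP4 stayed below GBP2 in treated HAQ/- (2.06% against 2.13%). Which isoforms the cells made was not measured.

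**Figure D4:**
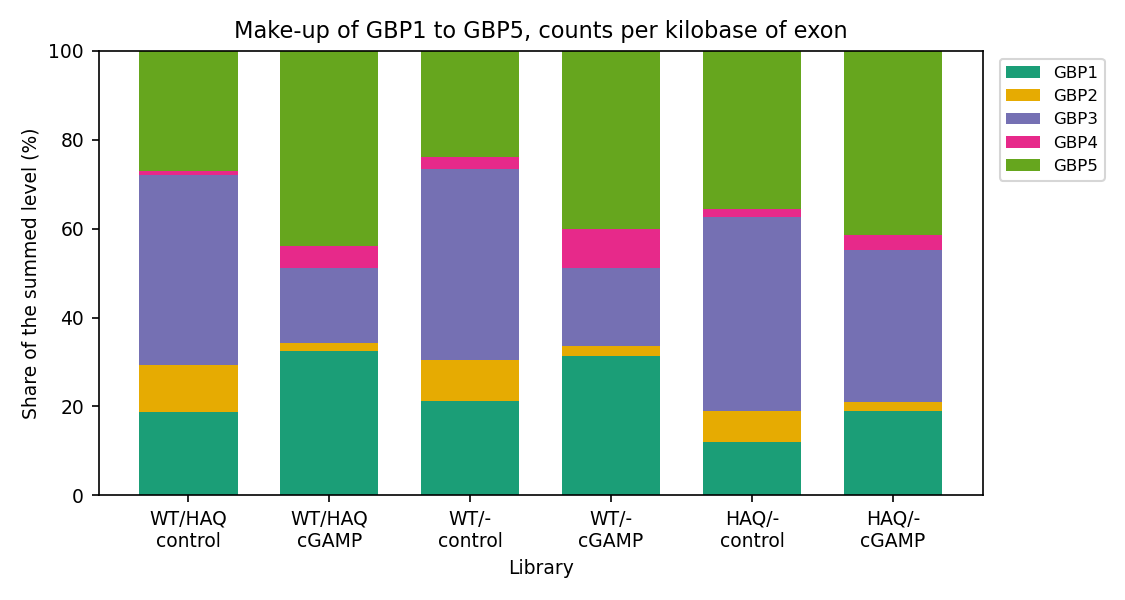
Share (%) of each gene in the summed level of the 5 genes per kilobase of merged exons, in each library. The GBP3 block fills 42.7 to 43.5% of every control bar and shrinks to 16.7 and 17.4% with cGAMP in WT/HAQ and WT/-, but only to 34.2% in HAQ/-.

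In counts, the 5 genes together made up 134 CPM (counts relative to the library total) of the WT/HAQ control library (95% exact binomial interval 128 to 139) and 1072 with cGAMP (1057 to 1088). WT/- went from 151 to 1171 CPM, and HAQ/- from 103 to 389.6. The summed normalized count was 8.20-fold higher with cGAMP in the parental line, 8.09-fold in WT/- and 3.81-fold in HAQ/-. GBP5 gave 62.8%, 58.9% and 62.5% of the gain in these lines and GBP1 25.9%, 25.3% and 17.2%. GBP3 supplied 6.48% and 7.05% of the gain in WT/HAQ and WT/- and 17.1% in HAQ/-, as much there as GBP1.

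The GBP genes form a cluster on chromosome 1 that spans chr1:89006679-89426243 (GRCh38, GENCODE release 44), 419.6 kb. In order of position they are GBP3, GBP1, GBP2, GBP7, GBP4 and GBP5 on the minus strand, then GBP6 and the pseudogene GBP1P1 on the plus strand. GBP2, whose fold was the smallest of the 5, thus sits between GBP1 and GBP4, with GBP7 on the way. GBP7 had 0 counts in all 3 controls, which allows up to 3 a library, and 3, 2 and 1 counts with cGAMP, under the filter. GBP6 had 7 to 24 counts in the 6 libraries and did not pass the test (edgeR log2 fold change 0.32, adjusted p = 0.675).

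GBP1P1 had 0 and 33 counts in WT/HAQ, 2 and 65 in WT/-, then 1 and 7 in HAQ/-. It passed the filter through its treated libraries, so counts and ratios rather than a call are given. Without a floor, GBP1P1 in the parental line had a lower counting limit of 9.09-fold, and no finite ratio to its 0 control counts. A floor of 3 control counts put the ratio there at 11.8. With 2 control counts the WT/- clone had a ratio of 46.5 (12.4 to 392), or 31.0 against the same floor. The HAQ/- clone, with 1 control count, had 8.78 (1.13 to 396), or 2.93 against that floor. Of 8 protein-coding neighbors, the 4 nearest on each side of the cluster, 6 passed the filter and edgeR called 0 in either direction, while 2 rose and 0 fell by unadjusted p (under 0.05; 11.6% and 13.6% of all genes) and DESeq2 called 1 higher (5.10% of all genes), RBMXL1. RBMXL1, beside GBP3, came closest among them, with log2 fold changes of 0.996, 0.69 and 0.39 in WT/HAQ, WT/- and HAQ/- (edgeR adjusted p = 0.0689). GTF2B, a general transcription factor, had 0.58, 0.63 and 0.33 (edgeR adjusted p = 0.0698).

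**Figure D5:**
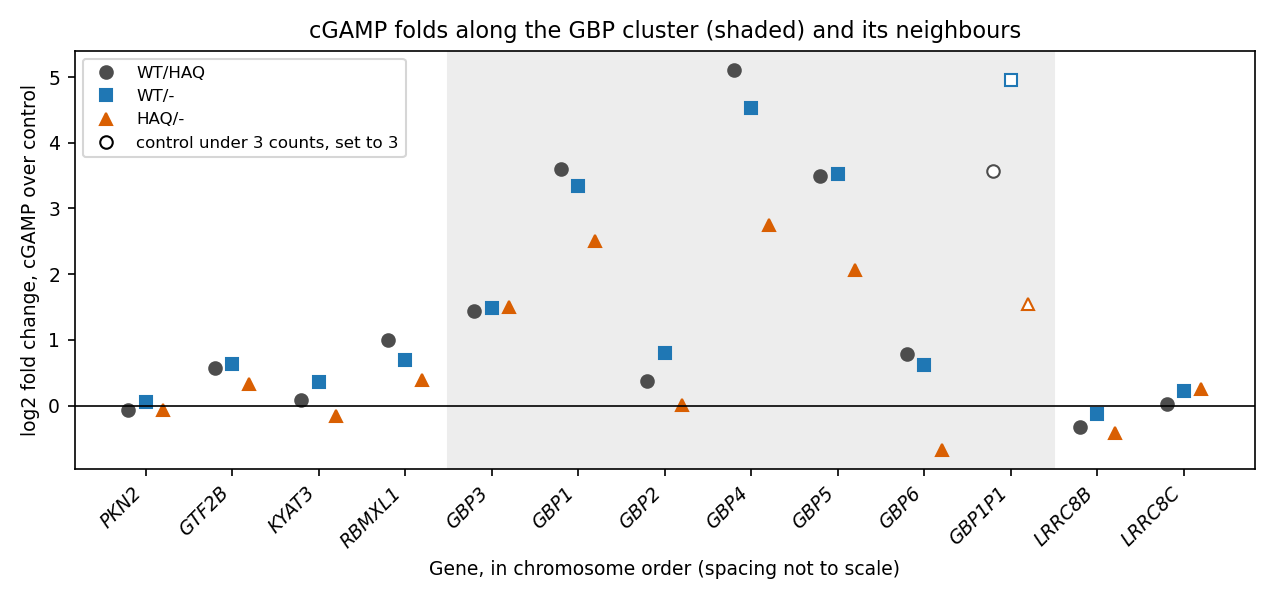
log2 fold change of cGAMP over control for GBP genes (shaded) and the measured protein-coding neighbors in chromosome order, by line, with spacing not to scale and GBP7 left out for low counts. GBP2 and GBP6 lie between -0.67 and 0.80, and GBP1, GBP4 and GBP5 at 3.50 to 5.11 in WT/HAQ; open symbols mark controls under 3 counts, set to 3.

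Reads can be shared within such a family. Coding sequences of GBP1 and GBP3 were 91.5% identical, those of GBP2 82.4% and 82.9% identical to them, and GBP5 was 74.4% to 76.6% identical to these 3. GBP4 stood apart at 61.2% to 64.2% from the other members and was closest to GBP7, at 84.9%. As stretches of 75 bases, compared from the canonical transcript of each gene to all annotated transcripts of the other family genes, 5.52% of GBP1 recurred, nearly all in GBP1P1, against 1.08% for GBP3, 0.249% for GBP2 and 0 for GBP4 and GBP5. The share was 23.3% for GBP7, all with GBP2 transcripts other than the canonical, so the few counts of GBP7 are uncertain too, as is the part of GBP2 counts from such transcripts. Of GBP1P1, 13.0% was shared, so its counts are uncertain beside the far larger GBP1 counts. GBP2 and GBP7 overlap on the same strand, and noncoding RNAs annotated on the opposite strand overlap GBP2, GBP4, GBP5 and GBP7. Annotated noncoding RNAs on the same strand also lie within GBP2 and GBP3. Whether counting used strand is not given in the sources used here. Without it reads of pairs on opposite strands cannot be told apart, and strand does not separate pairs on the same strand.

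The pathway upstream of the family was read from gene lists, starting with the interferon ligands. Of 5 listed, 4 passed the filter, through their counts in treated WT/HAQ and WT/-, so counts rather than calls are given for them. IFNG, the classic GBP inducer, had at most 1 count in any library. IFNB1, the type I interferon made by many cell types, went from 5 up to 1325 counts in WT/HAQ, from 2 up to 1934 in WT/- and from just 6 to 15 in HAQ/-. IFNL1, a type III interferon, went from 4 to 1575, from 4 to 1633 and from 7 to 17. Both were thus abundant in the treated libraries with a WT copy and under 20 counts in treated HAQ/-. IFNL2 and IFNL3 had 227 and 286 counts in treated WT/HAQ, 388 and 403 in treated WT/-, and 0 and 3 in treated HAQ/-.

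Of 9 receptors and kinases 8 passed the filter and edgeR called 0 in either direction, while 1 rose and 2 fell by unadjusted p (under 0.05; 11.6% and 13.6% of all genes) and DESeq2 called 1 higher (5.10% of all genes), JAK2. JAK2 was also the 1 gene at least 1.5-fold higher in each line. This kinase of the interferon gamma receptor had log2 fold changes of 3.67 in the parental line, 3.27 in WT/- and 0.98 in HAQ/- (edgeR adjusted p = 0.0689). Of 7 transcription factors 6 passed, 5 were called higher (STAT2, IRF1, IRF2, IRF7 and IRF9; 2.27% of all genes) and 1 lower (IRF3; 0.959%). IRF1 differed between lines before cGAMP: 3252 normalized counts in the WT/HAQ control and 9248 with cGAMP, 10982 and 18074 for WT/-, and 1307 and 4292 for HAQ/- (edgeR adjusted p = 0.0444). Untreated WT/- was thus above treated WT/HAQ for IRF1. WT/- was also the line with the highest untreated value of each GBP member. Its ratio to WT/HAQ ran from 1.03 for GBP2 and 1.05 for GBP5, both within counting error, to 3.07 for GBP4. A link to IRF1 was not tested. IRF9, the DNA-binding partner of the STAT factors, had log2 fold changes of 2.84, 1.38 and 2.33 in WT/HAQ, WT/- and HAQ/- (edgeR adjusted p = 0.0297), lowest in WT/- rather than HAQ/-. STAT2 had 3.24, 2.55 and 1.80 (edgeR adjusted p = 0.0189).

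All 3 feedback inhibitors were called higher by edgeR (2.27% of all genes): USP18, which blocks the type I receptor (log2 4.94, adjusted p = 0.00388), SOCS1 (log2 3.06, adjusted p = 0.014) and SOCS3 (log2 1.30, adjusted p = 0.0152). Among 6 enzymes that attach or trim the lipid anchor of GBP1, GBP2 and GBP5 or phosphorylate GBP1, edgeR called 0 higher and 1 lower (2.27% and 0.959% of all genes), the same numbers as DESeq2 (5.10% and 3.85%), while 0 rose and 2 fell by unadjusted p (under 0.05; 11.6% and 13.6% of all genes). The gene called was PIM1, the kinase known to phosphorylate GBP1, at -0.99 (log2, SE 0.0889, adjusted p = 0.0122, lower in 3 of 3 lines). The prenyltransferase subunits FNTA, FNTB and PGGT1B had log2 fold changes of -0.13, -0.10 and -0.07.

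Of 14 genes that GBPs work with in inflammasomes and lysis of cells or bacteria, 12 passed the filter, and edgeR called 3 higher and 1 lower (2.27% and 0.959% of all genes), DESeq2 3 and 2 (5.10% and 3.85%), with 5 and 3 by unadjusted p (under 0.05; 11.6% and 13.6%). The 3 called higher by edgeR were CASP4, APOL3 and AIM2. AIM2, a DNA sensor, passed the filter through its treated libraries, so its call is not read as a result and its counts are given. CASP4, the lipopolysaccharide-sensing caspase, was higher by 0.64 (log2, SE 0.106, edgeR adjusted p = 0.0489). APOL3, which permeabilizes bacterial membranes together with GBP1, had 2.67 (SE 0.272, edgeR adjusted p = 0.0158). AIM2 went from 10 up to 424 counts in WT/HAQ, in WT/- from 10 up to 144 and in HAQ/- from 3 up to 19. IL1B, an inflammasome substrate, was lower, from 465 to 96 counts, 2251 to 516 and 46 to 16 (edgeR adjusted p = 0.0139). GSDMD, the pore protein cleaved by CASP4, had log2 fold changes of 0.67, 0.60 and 0.14 (edgeR adjusted p = 0.0993). CASP1 did not pass the test either (edgeR adjusted p = 0.0954), nor did NLRP1, NLRP3, NLRC4, NAIP, NINJ1 and IL18. CASP5 had 0 counts in every library and the adaptor PYCARD at most 5.

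Of 18 other dynamin-superfamily GTPases 16 passed and edgeR called 2 higher (2.27% of all genes) and 0 lower, DESeq2 3 and 1 (5.10% and 3.85%), with 3 and 2 by unadjusted p (under 0.05; 11.6% and 13.6%). Those called by edgeR were MX1 and MX2, both antiviral and interferon-induced like the GBPs. MX1 had log2 fold changes of 6.996 in the parental line, 5.23 in WT/- and 5.69 in HAQ/- (edgeR adjusted p = 0.00625), and MX2 7.64, 7.42 and 6.65 (edgeR adjusted p = 0.00105). The atlastins ATL1, ATL2 and ATL3, the membrane-fusing GTPases closest to GBPs in structure, ranged from -0.11 to 0.14 in the test. In the wider NOD-like receptor pathway as the study lists it, without GBPs, 130 of 172 genes passed, edgeR called 18 higher and 9 lower (2.27% and 0.959% of all genes), and DESeq2 26 and 14 (5.10% and 3.85%). Those called higher include AIM2 and IFNB1, which passed the filter through their treated libraries, so their calls are not read as a result. In an interferon signature the study took from earlier work, without GBP4, 34 of 37 genes were called higher (2.27% of all genes) and 0 lower, as with DESeq2, and all 37 were higher at an unadjusted p under 0.05. These counts include CXCL10, which had under 10 counts in each control. It passed the filter through treated WT/HAQ and WT/-, so its call is not read as a result. With WT/- left out edgeR called 0 genes of any of these lists, since it called 0 in the table.

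Against the 37 signature genes, GBP4 had 11 with a larger fold in the parental line, 11 in WT/- and 14 in HAQ/-. GBP1 kept its place, with 17, 16 and 16 above it, and GBP5 had 17, 15 and 20. GBP3 moved up, from 29 genes above it in WT/HAQ and WT/- to 22 in HAQ/-. GBP2 was below all 37 in WT/HAQ and below 36 in both clones. The signature medians were 3.24, 2.73 and 2.24 in WT/HAQ, WT/- and HAQ/-.

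The genes with the pattern nearest to each member were found over the 6 libraries as the Euclidean distance between log2 normalized counts, each centered on its own mean, with counts under 3 set to 3. Nearest to GBP3 were SP100 (distance 0.313), N4BP1 (0.319) and PARP12 (0.326), whose log2 fold changes were 1.58, 1.38 and 1.13 for SP100 in WT/HAQ, WT/- and HAQ/-. GBP5 had PARP14 (0.466), PLAUR (0.532) and TMEM229B (0.550) nearest, the last with 12.2 to 13.1 normalized counts in the controls. GBP1 had KLF4 (0.812), RARRES3 (0.820) and PMAIP1 (0.829), and GBP4 had ANGPTL1 (0.470), TNFSF13B (0.764) and DNM1P51 (0.904), all with few counts in the controls. GBP2 had TJP3 (0.403), LRCH2 (0.418) and FBXW4P1 (0.452). Counts were low in every library for TJP3 (9.60 to 34.7 normalized) and FBXW4P1 (7.66 to 25.4), so counting error weighs on their distances. The members were not each other's nearest genes: the closest pair, GBP1 and GBP5, lay 1.196 apart, with GBP5 at rank 19 from GBP1 and GBP1 at rank 55 from GBP5.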

How the data were processed

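The table holds RSEM estimated counts per gene, which the authors deposited from STAR alignments to GRCh38 (hg38) per the submitters' processing notes. Versions and strand setting are not given in the sources used here. Counts were rounded, filtered to a mean of at least 10 and scaled by TMM (edgeR 4.0.16, R 4.3.3), with factors of 0.9403 to 1.052. The treatment test was edgeR's quasi-likelihood F test with line as a block, since the lines derive from the same cells, with Benjamini-Hochberg adjustment over 15126 genes. It was checked on simulated counts with the same treatment effect in every line, so the check does not cover a response that differs between lines. The p-values of the test hold no spread between replicates of a line. They rest on the spread of the response between these 3 lines, moderated by dispersion estimates shared over all tested genes. Folds used a floor of 3 counts, Clopper-Pearson 95% intervals and a threshold of 1.5. Differences between lines used counting error on the log scale. DESeq2 1.42.0, other scalings, filters, floors and left-out lines were alternatives. Coding sequences were aligned with MAFFT 7.526. Named genes were the 5 members, the measured genes of the short lists and the 3 nearest patterns per member. RBMXL1, GTF2B, JAK2, PIM1, FNTA, FNTB and PGGT1B were named after their values were seen. The members and lists were chosen with earlier results of these data known. Protein ends were not analysed here.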

Additional observations from a re-analysis of the deposited data

How the results depend on the processing

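Within the lines, all 105 alternative values of single-member folds moved by less than the counting interval under other scalings, thinned libraries, floors, prior counts and filters, and 4 or 5 members stayed past the fold threshold in each line at 1.5-fold. The treatment test was less stable. Without the replicate block, that is with line left out of the model, 0 members were called by edgeR (adjusted p from 0.0503 for GBP5 to 0.838 for GBP2), 4 of them at an unadjusted p under 0.05, and 57 genes were called higher and 4 lower in the whole table against 344 and 145. Leaving out a line gave 0 to 5 members called: 0 without WT/-, 3 without WT/HAQ and 5 without HAQ/-. Whole-table calls were then 0 higher and 0 lower without WT/- (949 and 939 at an unadjusted p under 0.05), 136 and 50 without WT/HAQ, and 1285 and 1309 without HAQ/-. The cause was not tested. DESeq2 called 772 genes higher and 583 lower, and a mean count of at least 1 gave 581 and 424, each with 4 members called. Apart from these whole-table counts, among results on the members, 9 test results lost their call and 1 gained it, and 2 counts, both of members called, moved by over 1.5 times. The other 339 values, most of them folds and differences without a test, stayed on the same side of the test threshold, within 1.5 times for counts, or within the counting interval. Among them 8 values near 0 turned sign, 0 of them with a call: GBP2 in HAQ/-, GBP3 between WT/- and HAQ/-, and GBP5 and the member median between WT/HAQ and WT/-. Members past the fold threshold went from 4 to 5 at 1.2-fold in WT/HAQ and from 5 to 4 at 2-fold in WT/-. Depth limits GBP4 in controls, GBP6, GBP7 and GBP1P1.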
